A study of Danio rerio with 6 samples.

Results

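Nucleotide excision repair removes bulky, helix-distorting lesions from DNA by cutting out a short stretch of the damaged strand and filling the gap. In the global branch, Xpc and the Ddb1-Ddb2 complex find lesions anywhere in the genome, and in the transcription-coupled branch Ercc8 (CSA) and Ercc6 (CSB) act where RNA polymerase II has stalled. Both branches then recruit TFIIH, whose helicases Ercc2 (XPD) and Ercc3 (XPB) open the DNA, together with Xpa, and the nucleases Ercc1-Ercc4 (XPF) and Ercc5 (XPG) cut on either side of the lesion. The branches meet the question of the study because CPT traps Top1 on DNA, a protein-linked break that also blocks transcription, and because the Ercc1-Ercc4 nuclease is known from yeast and human cells as an alternative to Tdp1.

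The group described here is a set of 10 such genes, *xpc*, *xpa*, *ddb1*, *ddb2*, *ercc2*, *ercc3*, *ercc5*, *ercc6*, *ercc8* and *gtf2h1*, each taken by its name in the platform annotation where a transcript cluster carries that symbol alone. By this rule 8 of the 10 were measured, among 19260 genes that have such a cluster. The genes *ercc3* and *ercc5* appear in the annotation only in clusters that also name a further gene, so they are given no value. The measured genes have 1 cluster each except *gtf2h1*, which has 2, and there the cluster with the higher mean represents the gene.

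The values are log2 RMA values of 6 whole-transcript arrays, 3 of *tdp1-/-* and 3 of *tdp1WT* zebrafish embryos, from RNA of whole embryos harvested at 5 dpf. Both genotypes had been kept in 500 nM camptothecin (CPT) for 16 hours, so each difference below is one of genotype under CPT, and no array of untreated embryos entered it. The *tdp1-/-* fish carry frameshift deletions made with CRISPR-Cas9 in the first coding exon, on a background that mixes London wild-type and nacre fish, and the name *tdp1-/-* covers both homozygotes for the same allele and carriers of different alleles, with no word on which were used on the arrays. The number of embryos behind an array was not found in the labels or the methods. The arrays of a genotype come from separate experiments and share the replicate numbers 1 to 3 with the other genotype.

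The median of an array over all 75212 clusters lay between 4.66 and 4.87, and arrays correlated with r from 0.969 to 0.988. The label was checked on *tdp1* itself, which measured 5.59, 5.34 and 5.85 in *tdp1WT* and 5.18, 5.17 and 5.24 in *tdp1-/-* replicates 1, 2 and 3, without overlap. Where its probes lie relative to the deletion was not analysed here. Of 18 markers of embryonic tissues 13 were measured, and 12 of these, from epidermis, muscle, heart, neurons, glia, lens, intestine and cartilage, lay at or above the median level of all clusters. The pancreas marker *cela1.1* lay below it, and the markers chosen for liver, photoreceptors and erythrocytes were not matched. Most of the clusters behind that median carry no symbol. Between the genotypes, 10 of the 13 had a log2 fold change below 0, beside 51.4% of all genes. Their mean level ran from 8.60 to 8.67 on the *tdp1WT* arrays and from 8.43 to 8.61 on the *tdp1-/-* arrays. These ranges overlap only between 8.601 and 8.614, and they do not use the replicate numbers. Within every same-numbered pair the mean over the markers was the lower on the *tdp1-/-* array, a shift that was not tested. Since the RNA came from whole embryos, fewer cells of a type and less RNA per cell cannot be told apart in any value given here.

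The damage sensor *ddb2* was the only member called higher in *tdp1-/-* embryos, and no member was called lower. A gene is said to be called where limma's unadjusted p lay below 0.05 and the fold change exceeded 1.2, the fold threshold of the study. The background of such calls was 0.852% of the 19260 genes in the higher direction and 1.04% in the lower, or 2.28% and 1.29% of all clusters. With 8 genes measured, a single call gives little to read against that background. After Benjamini-Hochberg adjustment over all clusters no member lay below 0.05 in limma, with an adjusted p of 0.9999 for each of the 8, and before adjustment *ddb2* was the only 1 of them below 0.05.

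**Figure D1:**
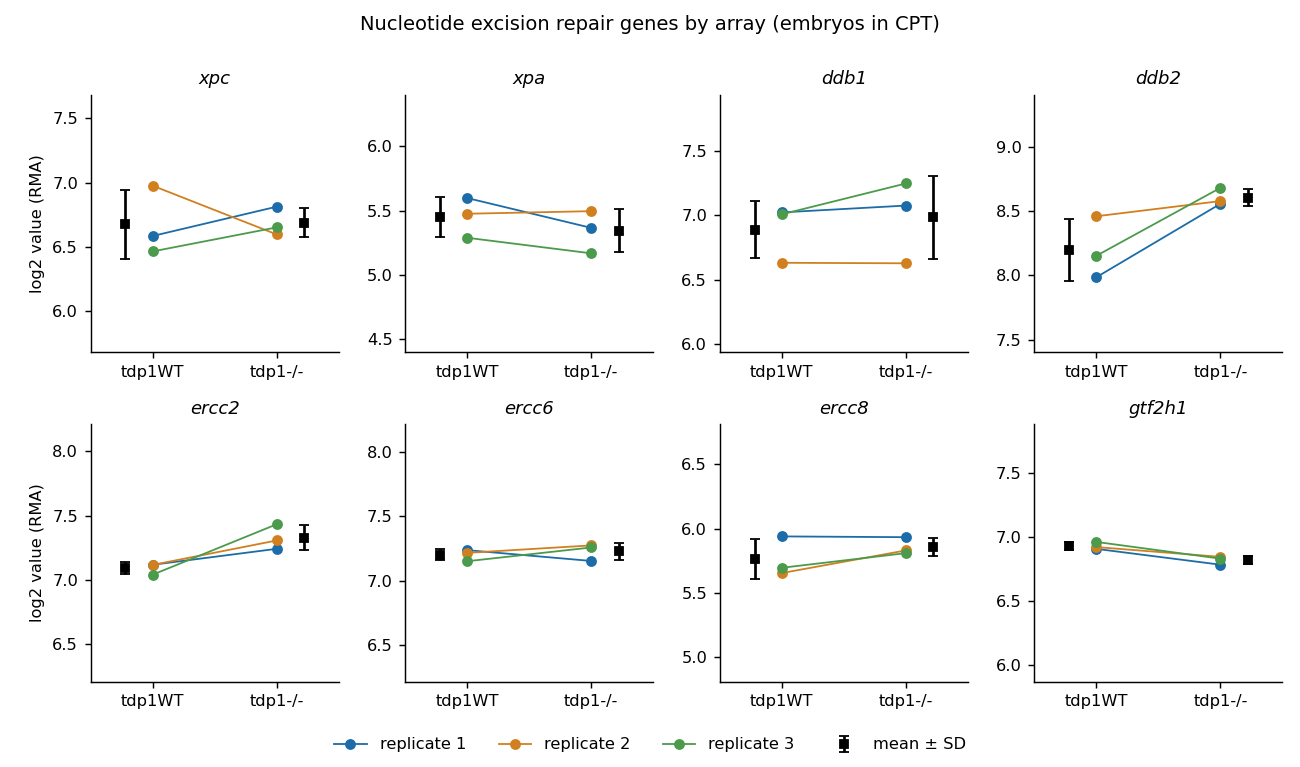
Log2 RMA values (vertical axis) of the 8 measured members on each array, with lines joining arrays of the same replicate number and squares with bars showing the mean ± SD of 3 arrays; each panel spans the same range of 2 log2 units. The panel of *ddb2* shows every *tdp1-/-* array above every *tdp1WT* array, from 8.56 to 8.68 against 7.99 to 8.46.

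Among the genes of damage recognition, *ddb2* encodes the subunit that binds ultraviolet lesions in chromatin and hands them to Xpc. It measured 7.99, 8.46 and 8.15 in *tdp1WT* replicates 1, 2 and 3 and 8.56, 8.58 and 8.68 in *tdp1-/-* replicates 1, 2 and 3. The *tdp1-/-* arrays lay close together above all *tdp1WT* arrays, and *tdp1WT* replicate 2 came nearest to them. The means were 8.20 ± 0.24 and 8.61 ± 0.07 (log2 value, SD, n = 3 arrays each), a log2 fold change of 0.41 (95% confidence interval, CI, 0.02 to 0.79), or 1.32-fold higher. The exact permutation test, two-sided, gave p = 0.1, the smallest that 3 arrays against 3 allow, so this design cannot reach 0.05 by that test. Within the same-numbered pairs the log2 difference was 0.57, 0.12 and 0.53 for replicates 1, 2 and 3.

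By unadjusted p, *ddb2* stood at position 268 of the 19260 genes. The call of *ddb2*, at a log2 fold change of 0.41 on all arrays, did not hold in most fits that left out 1 array. Such a fit has fewer arrays, so a call can end although the value hardly moves. The call ended without *tdp1WT* replicate 1 (log2 fold change 0.30) or replicate 3 (0.38), and without *tdp1-/-* replicate 1 (0.43), replicate 2 (0.42) or replicate 3 (0.37), whereas without *tdp1WT* replicate 2 the call stayed, at 0.54. It also ended after centring each array on its median, with a log2 fold change of 0.38. In human cells *DDB2* is a transcriptional target of p53. Of 13 measured genes of the p53 pathway, 10 had a log2 fold change above 0, beside 9357 of the 19260 genes. None of the 13 was called in either direction, with 0.18 for *cdkn1a*, which halts the cell cycle, and 0.08 for *mdm2*, the ubiquitin ligase of p53. With the replicate block 1 of the 13 was called higher, beside 1.55% of all genes. This was the damage-response gene *gadd45aa*, which had the largest value of the list, 0.48 (95% CI -0.17 to 1.14, and 0.06 to 0.91 with the block). The related gene *gadd45ba* of the same list had 0.03. The mean level over these 13 genes ranged from 8.84 to 8.96 on the *tdp1WT* arrays and from 8.86 to 9.05 on the *tdp1-/-* arrays, which overlap. These ranges do not use the replicate numbers. Within every same-numbered pair the mean over the list was the higher on the *tdp1-/-* array, a shift that was not tested. The part of p53 in the *ddb2* value was not tested.

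The partner gene *ddb1*, the adaptor that links Ddb2 to the Cul4 ubiquitin ligase, varied more between replicates than between genotypes. It measured 7.02, 6.63 and 7.01 in *tdp1WT* and 7.08, 6.63 and 7.25 in *tdp1-/-* replicates 1, 2 and 3, so the arrays numbered 2 were the low ones in both genotypes. The log2 fold change was 0.10 (95% CI -0.39 to 0.58), and it passed below 0, to -0.03 and -0.04, without *tdp1WT* replicate 2 or *tdp1-/-* replicate 3. When the fit took the replicate number as a block, the interval of *ddb1* was -0.22 to 0.41.

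The gene *xpc*, whose product recognises the distorted helix in the global branch, showed no difference that the arrays could resolve. It measured 6.58, 6.98 and 6.47 in *tdp1WT* and 6.81, 6.60 and 6.65 in *tdp1-/-* replicates 1, 2 and 3, with the highest and the lowest value both in *tdp1WT*. The log2 fold change was 0.01 (95% CI -0.40 to 0.42; exact permutation test, two-sided, p = 0.9). This interval leaves room for a change of either sign about as large as that of *ddb2*. The sign of *xpc* turned with the scaling, to -0.0099 after median centring.

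Of the transcription-coupled branch, both measured members had values close to each other in the genotypes. The gene *ercc6* encodes the CSB translocase that binds stalled RNA polymerase II. It measured 7.24, 7.22 and 7.15 in *tdp1WT* and 7.15, 7.27 and 7.26 in *tdp1-/-* replicates 1, 2 and 3, and the genotypes overlapped. Its log2 fold change of 0.03 had a 95% CI of -0.28 to 0.33. The gene *ercc8* encodes CSA, the substrate receptor of the ubiquitin ligase of this branch. It measured 5.94, 5.65 and 5.70 in *tdp1WT* and 5.93, 5.83 and 5.81 in *tdp1-/-* replicates 1, 2 and 3, again with overlap, and gave a log2 fold change of 0.09 (95% CI -0.24 to 0.43).

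Neither of the TFIIH genes *ercc2* and *gtf2h1* was called, and only the brighter cluster of *gtf2h1* lay on the opposite side of 0 from *ercc2*. The helicase gene *ercc2* measured 7.12, 7.12 and 7.04 in *tdp1WT* and 7.24, 7.31 and 7.43 in *tdp1-/-* replicates 1, 2 and 3. All *tdp1-/-* arrays lay above all *tdp1WT* arrays, and the log2 fold change was 0.24 (95% CI -0.08 to 0.55), or 1.18-fold. Its value stayed between 0.18 and 0.28 over the 15 alternative settings, in none of which it was called.

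The gene *gtf2h1* encodes the p62 core subunit, through which Xpc and other factors contact TFIIH. Its brighter cluster measured 6.91, 6.92 and 6.96 in *tdp1WT* and 6.78, 6.84 and 6.83 in *tdp1-/-* replicates 1, 2 and 3, with all *tdp1-/-* arrays lower and a log2 fold change of -0.11 (95% CI -0.41 to 0.19). The second cluster of *gtf2h1* gave the opposite sign, 0.19 (95% CI -0.19 to 0.57), with the arrays overlapping. The clusters of this gene therefore disagree, and no direction is given for it. Where in the transcript each of them lies was not analysed here.

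The gene *xpa* encodes the scaffold that verifies the lesion and positions the nucleases. It measured 5.60, 5.48 and 5.29 in *tdp1WT* and 5.37, 5.50 and 5.17 in *tdp1-/-* replicates 1, 2 and 3, with overlap. Its log2 fold change was -0.11 (95% CI -0.48 to 0.26; exact permutation test, two-sided, p = 0.5). The arrays numbered 3 were the low ones in both genotypes.

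**Figure D2:**
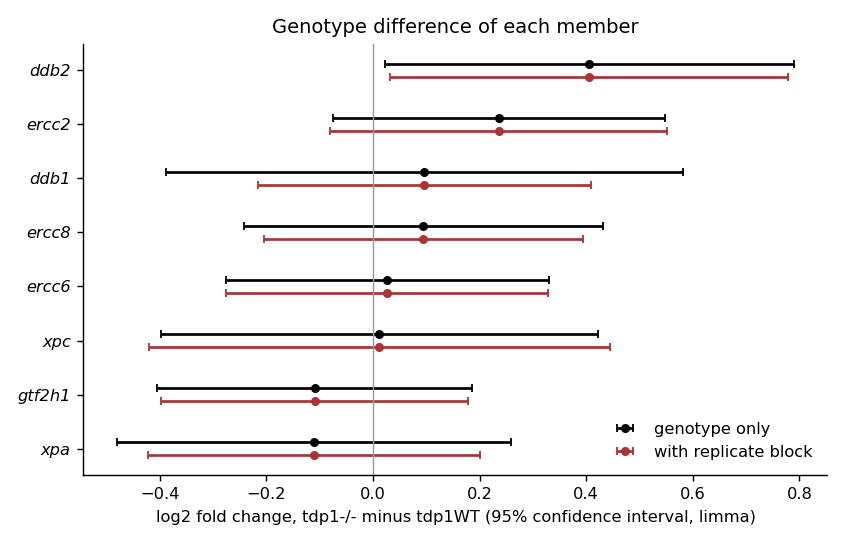
Log2 fold change of each member (horizontal axis, *tdp1-/-* minus *tdp1WT*) with its 95% confidence interval from limma, for the fit on genotype alone (black) and with the replicate number as a block (red). The intervals of *ddb2*, from 0.02 to 0.79 and from 0.03 to 0.78, lie above 0, and those of the other 7 members include 0.

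Across the group, 6 of the 8 members had a log2 fold change above 0 and 2 below, with a median of 0.06 beside -0.0050 over all genes and 0.03 over all clusters. The sizes were those of an ordinary gene on these arrays, with a median absolute log2 fold change of 0.10 for the members and likewise 0.10 for all genes. The values of the genotypes did not overlap for 3 members, *ddb2*, *ercc2* and *gtf2h1*, where 7.72% of all genes and 7.67% of all clusters had no overlap. In these counts *gtf2h1* stands by its brighter cluster, while its second cluster lay above 0 and overlapped. Whether *ddb2* differed from the other members in its response was not tested. All 8 lay at or above the median level of all clusters, 4.77, as did 43 of the 46 measured genes of the repair lists described below. That median is taken mostly over clusters with no symbol, 53551 of 75212. The share of all genes above it was not counted.

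The members were also compared in how they varied from array to array within a genotype. After each genotype's mean was subtracted, the correlation between members over the 6 arrays ranged from -0.83 to 0.74 over the 28 pairs of genes, with a median of -0.04 and 13 pairs above 0. The lowest was that of *ddb2* with *ercc8* and the highest that of *ercc2* with *ercc6*. These are descriptions of 6 arrays that share their normalization. The mean deviation of the 8 members on an array lay between -0.05, on *tdp1WT* replicate 3, and 0.03, on *tdp1WT* replicate 2.

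The rest of the pathway was read from 6 lists arranged by role, which together with the members hold 53 genes, 46 of them measured. Of these 46, 1 was called higher, *ddb2*, and 3 were called lower, *rpa2*, *rfc2* and *lig1*, beside 0.852% and 1.04% of all genes. The log2 fold change was below 0 in 29 of the 46 with a median of -0.05, and in 51.4% of all genes. The median was 0.0080 over 10 genes of damage recognition and 0.03 over 7 genes of the transcription-coupled branch. It was -0.11 over 5 genes of the TFIIH core, -0.08 over the 3 genes of its kinase module, -0.22 over 6 genes of verification and incision and -0.11 over 15 genes of gap filling and ligation. Some of these medians turn on a setting or an array. That of damage recognition was -0.01 after median centring and ran from -0.02 to 0.10 without single arrays, from *tdp1-/-* replicate 1 to *tdp1WT* replicate 2. That of the TFIIH core was 0.02 with the mean of all clusters of a gene, and that of the kinase module ran from -0.23 without *tdp1-/-* replicate 2 to 0.02 without *tdp1-/-* replicate 1. For verification and incision it was -0.33 without dim clusters, and ran from -0.29 without *tdp1-/-* replicate 1 to -0.11 without *tdp1-/-* replicate 3. The difference between these lists was not tested.

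**Figure D3:**
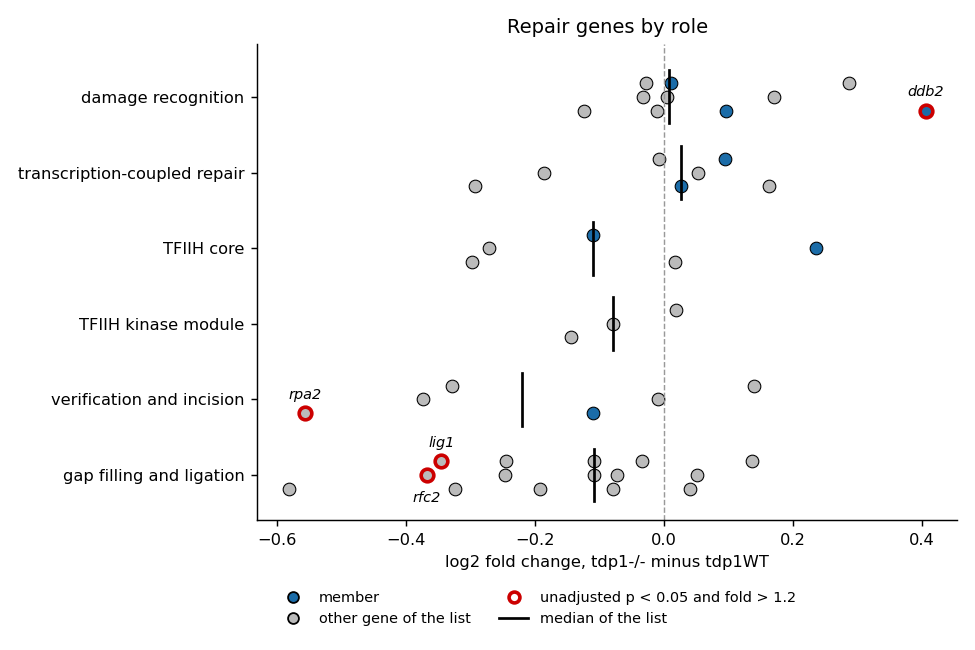
Log2 fold change (horizontal axis, *tdp1-/-* minus *tdp1WT*) of each measured repair gene in the 6 lists by role, 1 point per gene, with members in blue, called genes ringed in red and the median of each list as a bar. The called genes are *ddb2* at 0.41 and *rpa2*, *rfc2* and *lig1* at -0.56, -0.37 and -0.35; in gap filling and ligation 12 of 15 genes lie below 0.

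In damage recognition 6 of 10 genes lay above 0 and 4 below. The ubiquitin ligase scaffolds *cul4a* and *cul4b*, which work with Ddb1 and Ddb2, had log2 fold changes of 0.17 and 0.0042, and *rad23b*, which stabilises Xpc, had -0.03. The centrin gene *cetn4* did not overlap between the genotypes, at 4.30, 4.41 and 4.27 in *tdp1WT* and 4.58, 4.50 and 4.75 in *tdp1-/-* replicates 1, 2 and 3, and was not called (log2 fold change 0.29, 95% CI -0.04 to 0.62). The cluster of *cetn4* is dim, below the median level of all clusters. In mammals it is the related centrin 2 that binds XPC. The gene *cetn2* had a log2 fold change of -0.03 here, with the arrays overlapping and a cluster above that median level.

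In the transcription-coupled branch no gene of the 7 was called, and the values ran from -0.29 for *uvssa*, whose product recruits TFIIH to stalled polymerase, to 0.16. In the TFIIH core the further subunit genes *gtf2h2* and *gtf2h4* had log2 fold changes of -0.30 and -0.27, opposite in sign to *ercc2*. The subunit gene *gtf2h5* had 0.02, on the same side of 0 as *ercc2*. The arrays of *gtf2h4* and *gtf2h5* overlapped between the genotypes, and neither gene was called. For *gtf2h2* the arrays did not overlap, at 5.32, 5.32 and 5.46 in *tdp1WT* and 5.13, 4.86 and 5.22 in *tdp1-/-* replicates 1, 2 and 3, and it was not called (95% CI -0.65 to 0.06), with -0.19 without *tdp1-/-* replicate 2. The kinase module genes *cdk7*, *ccnh* and *mnat1*, which TFIIH uses in transcription, ranged from -0.14 to 0.02 with none called.

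Among the genes of verification and incision, *rpa2* was called lower in *tdp1-/-* embryos. It encodes a subunit of RPA, which coats the undamaged strand in excision repair and single-stranded DNA in replication and recombination. It measured 7.49, 7.13 and 7.42 in *tdp1WT* and 6.81, 6.56 and 7.002 in *tdp1-/-* replicates 1, 2 and 3. Every *tdp1-/-* array was below every *tdp1WT* array, with a log2 fold change of -0.56 (95% CI -0.97 to -0.14), or 1.47-fold lower, and an adjusted p of 0.9999 from limma. The call ended without *tdp1WT* replicate 1 (-0.48). The largest subunit gene *rpa1* had a log2 fold change of -0.33 and was called lower only with the replicate block (95% CI -0.64 to -0.02), and without the block it ran from -0.46 to -0.14 over single arrays left out, the latter without *tdp1-/-* replicate 2, while *rpa3* had -0.0090 and a dim cluster.

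Of the nuclease genes of the incision step, *ercc4* and *ercc1* were not called, and *ercc5* has no value here. The paper measured *ercc4* and *ercc1* by qPCR and reported no significant genotype difference for either, with or without CPT. It also reported that CPT raised *ercc4* and lowered *ercc1*, a comparison that these arrays do not hold. The catalytic subunit gene *ercc4* measured 5.18, 5.60 and 5.25 in *tdp1WT* and 5.21, 5.08 and 4.63 in *tdp1-/-* replicates 1, 2 and 3, with the pair numbered 1 nearly equal and the other pairs lower in *tdp1-/-*. Its log2 fold change of -0.37 had a 95% CI of -0.85 to 0.10, and was -0.20 without *tdp1-/-* replicate 3 and -0.24 without *tdp1WT* replicate 2. Its partner gene *ercc1* had 0.14 (95% CI -0.29 to 0.56), higher in *tdp1-/-* in all 3 pairs. Without single arrays the value of *ercc1* ran from 0.04, without *tdp1WT* replicate 3, to 0.28, without *tdp1-/-* replicate 3.

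In gap filling and ligation, 12 of 15 genes had a log2 fold change below 0 and 2 were called lower. The clamp loader gene *rfc2* measured 7.27, 7.41 and 7.17 in *tdp1WT* and 6.88, 7.002 and 6.86 in *tdp1-/-* replicates 1, 2 and 3, without overlap, which is 1.29-fold lower (log2 fold change -0.37). The ligase gene *lig1*, which seals the gap in dividing cells, measured 6.49, 6.38 and 6.29 in *tdp1WT* and 5.96, 6.07 and 6.10 in *tdp1-/-* replicates 1, 2 and 3, again without overlap, and was 1.27-fold lower. The call of *rfc2* ended without *tdp1WT* replicate 1 (-0.37) or 2 (-0.30) and without *tdp1-/-* replicate 1 (-0.35) or 3 (-0.34), and that of *lig1* without *tdp1WT* replicate 1 (-0.29) or 2 (-0.35) and without *tdp1-/-* replicate 1 (-0.30), 2 (-0.36) or 3 (-0.37). On all arrays the log2 fold changes of *rfc2* and *lig1* were -0.37 and -0.35, so in several of these fits the call ended with little change in the value. The second cluster of *rfc2* had a log2 fold change of -0.28, and with the mean of both the gene was not called (-0.32).

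Among the other genes of that list, *rfc4* did not overlap between the genotypes and was not called (log2 fold change -0.25, and -0.12 without *tdp1-/-* replicate 2). The polymerase gene *pold1* had the most negative value, -0.58, with 6.63, 5.75 and 6.52 in *tdp1WT* and 6.37, 5.24 and 5.54 in *tdp1-/-* replicates 1, 2 and 3. The replicates spread so widely that it was not called without the replicate block, and it was called with it (95% CI -1.03 to -0.13). In the fit without the block, leaving out 1 array moved its value widely, from -0.34 without *tdp1-/-* replicate 2 to -0.85 without *tdp1WT* replicate 2 and -0.91 without *tdp1-/-* replicate 1, and it was called in these last cases only. The sliding clamp gene *pcna*, to which these enzymes bind, had -0.08 (95% CI -0.39 to 0.23).

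**Figure D4:**
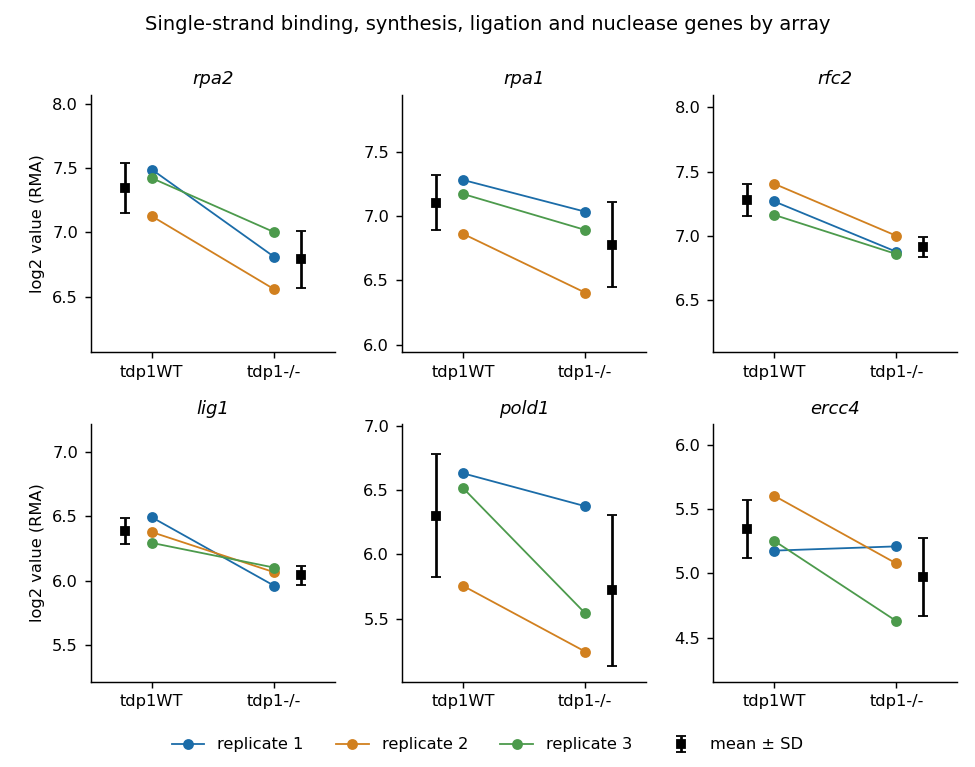
Log2 RMA values (vertical axis) of 6 repair genes outside the group on each array, with lines joining arrays of the same replicate number and squares with bars showing the mean ± SD of 3 arrays; each panel spans 2 log2 units. The *tdp1-/-* array is the lower in all 3 pairs for *rpa2*, *rpa1*, *rfc2*, *lig1* and *pold1*, and in *ercc4* the pair numbered 1 is nearly level.

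With the replicate block 5 of the 46 repair genes were called lower, *rpa2*, *rpa1*, *rfc2*, *lig1* and *pold1*, and *ddb2* alone was called higher, beside 2.49% and 1.55% of all genes. These 5 genes also serve DNA replication. So do other genes of the lists that were called in neither fit, with values from -0.32 for *pole* to 0.14 for *pold4*. Among these were *pcna* at -0.08 and *rfc5* at 0.05. Of 16 measured genes of proliferation, 14 had a log2 fold change below 0 with a median of -0.26, beside 51.4% of all genes below 0. In the fit without the block 3 were called lower, *cdk1*, *tyms* and *aurka*, beside the 1.04% of all genes. The mitotic kinase gene *cdk1* had -0.58, *tyms* -0.54 and *aurka* -0.40. Of these, *cdk1* alone lies on chromosome 17, as *tdp1* does, and the part of this shared location was not tested. With the block 4 were called lower, *cdk1*, *tyms*, *mcm3* and *rrm1*, and *aurka* was not. The mean level over the 16 ranged from 5.65 to 5.92 on the *tdp1WT* arrays and from 5.42 to 5.66 on the *tdp1-/-* arrays. These ranges overlap only between 5.646 and 5.663, and they do not use the replicate numbers. Within every same-numbered pair the mean over the proliferation genes was the lower on the *tdp1-/-* array, a shift that was not tested. Of the 13 tissue markers, the keratin gene *krt5* of epidermis was called lower without overlap (-0.50), beside the 1.04% of all genes. The glial gene *gfap* had -0.45 and was called lower with the block only, where 2.49% of all genes were. The second markers of these tissues, *krt4* (-0.14) and *mbpa* (-0.18), overlapped between the genotypes and were not called. The intestine marker *fabp2* was higher without overlap (0.09) and not called. The part of the share of dividing cells or of other cell types in the values of the replication genes was not tested.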

How the data were processed

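The authors labelled 200 ng of total RNA with the Affymetrix WT plus protocol and processed the scans by RMA (background correction, quantile normalization, probe summarization). The deposited values are log2 values, 1 per transcript cluster and array. No genome build or annotation release is named in the labels or the methods. Of 75212 clusters the platform annotation gives 20806 exactly 1 symbol, 855 several and 53551 none. List genes were matched by that symbol or by the RefSeq symbol of the same Entrez ID, and of several clusters of a gene the brightest by mean was used.

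R 4.3.3 and limma 3.58.1 (lmFit, eBayes) were fitted on all clusters with genotype as the only term, with Benjamini-Hochberg adjustment over all of them. A gene is called at an unadjusted p under 0.05 with a fold change over 1.2. On simulated data with these means and spreads, 91% of clusters given a log2 change of 1 had an unadjusted p under 0.05 and 10% an adjusted p under 0.05, against 5.42% and 0.00267% of unchanged clusters. A change of 1 is larger than that of any measured repair gene, which ran from -0.58 to 0.41. Only a small random part of the clusters was changed, some of them by 2. The share with a low adjusted p depends on how many clusters change and by how much. Smaller changes were not simulated, and the noise was drawn independently for each array, with no replicate effect.

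Deviations from the genotype means correlated between same-numbered arrays with r of 0.203, 0.216 and 0.29, so the replicate number was taken to pair arrays, and a fit with it as a block is given where it changes a call of a gene in the lists. The main fit and the exact permutation test do not use this pairing, so what same-numbered arrays share stays in their spread. In limma 364 of the 19260 genes had an unadjusted p under 0.05 without the block, and 778 with it. Both are less than a share of 0.05 of the genes, which this threshold gives on average where no gene differs. The members and lists were chosen with earlier results of these data known. Genes named beside the members are those of the 6 lists that were called or did not overlap, *ercc1* and *ercc4*, *tdp1*, and *pcna*, *cdk1*, *cdkn1a* and *mdm2*; other genes, among them *gadd45aa*, *krt5* and those of proliferation beside *cdk1*, were named after their values were seen, as examples of their list. Promoter motifs had been planned and were not analysed here. The number of arrays limits the precision, and depth does not apply to arrays.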

Additional observations from a re-analysis of the deposited data

How the results depend on the processing

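Alternatives were a further quantile normalization, centring of each array on its median, the replicate block, array weights, a variance prior with trend and robust estimation, leaving out dim clusters, the mean of all clusters of a gene, shared values counted once, no fold change threshold and leaving out each array. Centring with the block, and the other cluster of *gtf2h1*, were added after the data were seen. The number of members called higher was 1, and 0 after centring with or without the block, and from 0 to 1 without single arrays. No member was called lower under any of them, and their median log2 fold change lay between 0.02 and 0.10 without single arrays. For all repair lists the number called higher was likewise 0 after centring with or without the block and from 0 to 1 without single arrays. The number called lower was 5 with the replicate block, with or without centring, and from 0 to 3 without single arrays, with 0 without *tdp1WT* replicate 1. The median of all repair lists was -0.0619 after quantile normalization, -0.0753 after centring (with or without the block), -0.0708 with array weights, -0.0781 without dim clusters, -0.0194 with the mean of clusters, and from -0.0933 to -0.0363 without single arrays. The block changed no call of a member. The sign turned for *xpc* to -0.0099 after centring (with or without the block) and -0.0013 with array weights, and from -0.0932 to 0.162 without single arrays. It turned for *gtf2h1* to 0.0407 with the mean of its clusters and 0.191 with its other cluster, and for *ddb1* without single arrays, from -0.0359 to 0.275. The call of *tdp1* ended with array weights, with the trended prior and without any array except *tdp1WT* replicate 2. The causes were not tested.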
